A study of Mus musculus with 4 samples.

Results

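Presomitic mesoderm cells in which neither Hoxc10 nor Hoxd11 was detected were picked from single-cell RNA-seq of the caudal part of mouse embryos at embryonic day 8.5, and are called the members here. They were chosen by measured values: a filtered cell (at least 3000 genes, at least 7500 UMIs, that is, uniquely tagged RNA molecules, and at most 7% mitochondrial UMIs) was taken when it held at least 3 UMIs of Tbx6, at least 1 UMI of at least 2 of Dll1, Dll3, Msgn1 and Rspo3, at most 2 UMIs of Mesp2 and Ripply2 together, and 0 UMIs of Hoxc10 and Hoxd11. The rule found 2235 members among 20198 filtered and 24239 deposited cells. The study set wild-type (WT) embryos against embryos lacking Grhl3, a transcription factor of the surface ectoderm needed for neural tube closure, both from crosses of Grhl3+/- mice on a C57BL/6 background. Cells of 5 WT embryos made 1 pool and cells of 3 Grhl3-null embryos made another, and each pool was run as 2 droplet reactions. The p-values below therefore compare 2 pools and hold no spread between embryos, and n counts droplet reactions, which are not separate biological replicates. Every cell of the null embryos lacks functional Grhl3, so no tissue of theirs is an internal control.

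The presomitic mesoderm is the unsegmented tissue at the tail end of the embryo that is laid down from axial progenitors and is cut into somites at its front end. Cells leave a progenitor state marked by T and Sox2, take up Tbx6, which fixes the mesodermal fate, and pass through a gradient of Wnt and Fgf signals that is high at the tail and opposed by retinoic acid from the somites. On the way the Notch pathway drives an oscillating clock, read out by Hes7 and Lfng, and at the front Mesp2 and Ripply2 mark the next segment boundary before Meox1 and Tcf15 mark the somite. Hox genes are switched on in the order of their paralogue groups, so those of groups 10 to 13 mark later and more caudal tissue.

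Values are given in the order WT replicate 1, WT replicate 2, Grhl3-null replicate 1 and Grhl3-null replicate 2. The libraries held 6186, 5698, 6177 and 6178 deposited cells with 230556666, 224056649, 232903564 and 217559026 UMIs. Filtering kept 5459, 5116, 4842 and 4781 cells. Members numbered 641, 624, 514 and 456 and held 28675534, 27689335, 30961789 and 27147034 UMIs. Levels are UMIs summed over the members of a library scaled to the usual common total of counts (CPM). Pairs of libraries shared between 7 and 16 deposited barcodes and at most 1 barcode among members.

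Cells near the limits of the rule were many for Tbx6 and few for the boundary genes. With the other conditions met, 430 WT and 293 null cells held 2 UMIs of Tbx6 and stayed out, whereas 368 WT and 266 null cells entered with 3. Only 11 WT and 12 null cells missed the rule with 1 detected marker, against 58 and 44 members with 2. Members with Mesp2 and Ripply2 at 2 UMIs numbered 8 and 11, and cells just outside at 3 numbered 10 and 7. A single UMI of Hoxc10 or Hoxd11 kept 181 WT and 54 null cells out.

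Of presomitic markers outside the rule, Hes7, T and Nrarp were found in most WT members of at most 45000 UMIs, and Lfng was not. At least 1 UMI of Hes7, the clock repressor, was found in 93.3% and 93.4% of these WT members. No UMI of T was found in 7.88% and 6.11% of them, of Nrarp in 21.5% and 17.8% and of Lfng in 67.5% and 70.2%. Hes7 was at 168 and 156 CPM in these members and at 67.4 and 67.3 CPM in all other filtered WT cells of at most 45000 UMIs. The endothelial cells (at least 3 UMIs of Kdr with Cdh5 and Pecam1), which should lack Hes7, held it in 16.7% and 12.2% of WT cells, at medians of 36461 and 37934 UMIs against 31062 and 31090 UMIs in those members. Msgn1, a mesodermal master factor and a marker of the rule, was scarce at 2.65, 4.02, 2.50 and 5.40 CPM and was found in 7.88% and 10.8% of WT members of at most 45000 UMIs, so the label rests on Tbx6, Dll1, Dll3 and Rspo3 more than on Msgn1. The words without posterior Hox apply to Hoxc10 and Hoxd11 alone. Hoxc9 stood at 74.4, 80.2, 78.5 and 77.0 CPM in the members of at most 45000 UMIs. Hoxa10 was found in 4.99%, 5.61%, 4.86% and 3.07% of all members.

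The deepest members often carried transcripts of both sexes. Male and female transcripts together, 3 or more UMIs of Xist beside 2 or more from 4 genes of the Y chromosome, were found in 9.36%, 8.17%, 24.1% and 24.8% of the members. The measure misses mixtures of a single sex, and females were 73.5%, 73.0%, 44.4% and 42.5% of sexed filtered cells. The shares are therefore not comparable rates of mixed cells between genotypes. Within each genotype the share grew with the UMIs of the cell, from 0% up to 30000 UMIs to 41.7% of WT and 64.1% of null members over 80000 UMIs. Over the same range Tbx6 fell from 174 to 71.9 CPM in WT and from 166 to 56.8 CPM in null members. The rule asks for 3 UMIs of Tbx6 at any depth, which forces a higher CPM on shallow members, so nothing is read from this fall. Sox2, a neural and progenitor factor, went from 7.10 to 31.8 CPM in WT and from 10.3 to 57.5 CPM in null members. Null members were deeper, with medians of 44970 and 45690 UMIs against 36455 and 36814 in WT. A limit of 45000 UMIs, chosen after seeing these data, left 419, 409, 258 and 225 members, of which 0%, 0.489%, 0.775% and 1.33% carried both kinds of transcript. The genotype comparison within the members is given for all members and under that limit, with the depth named beside each value, and the part of mixed cells in any single difference was not tested.

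**Figure D1:**
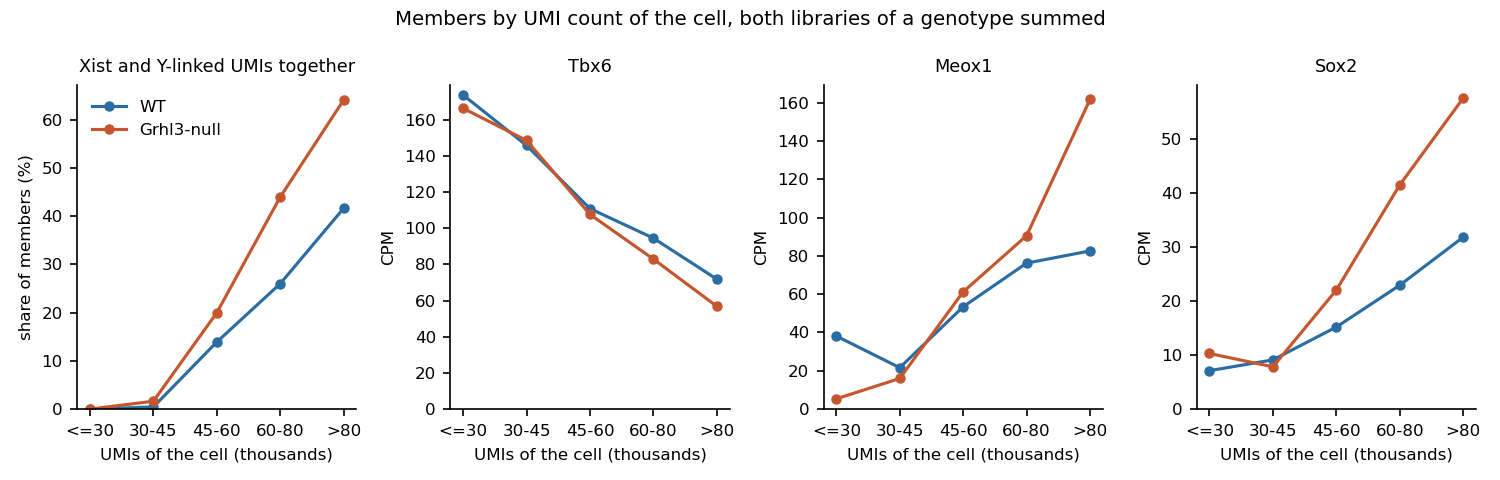
Members grouped by the UMIs of the cell (x axis), both libraries of a genotype summed: the share with Xist and Y-linked UMIs together (%) and the levels of Tbx6, Meox1 and Sox2 (CPM). Mixed male and female transcripts reach 41.7% of WT and 64.1% of Grhl3-null members over 80000 UMIs, where Meox1 is at 82.6 and 162 CPM. Tbx6 is lowest there, but its fixed minimum of UMIs in the rule forces a higher CPM on shallow members.

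Members made up a smaller share of the Grhl3-null libraries. They were 11.7%, 12.2%, 10.6% and 9.54% of the filtered cells, a mean of 12% ± 0.322 (SD, n = 2) in WT and 10.1% ± 0.762 (SD, n = 2) in null. The libraries of the genotypes did not overlap. The edgeR quasi-likelihood fit over the cell numbers of 5 classes gave a log2 difference of -0.25 (adjusted p = 0.0140 over the 5 classes). Leaving out WT replicate 1, WT replicate 2 or Grhl3-null replicate 2 ended the call, with log2 differences of -0.28, -0.22 and -0.17 (edgeR adjusted p = 0.129, 0.251 and 0.163). Because the rule counts raw UMIs, it admits more cells from a deeper library. Every cell was also thinned to 7500 UMIs, which left no filtered cell out. There the rule was changed to at least 1 UMI of Tbx6 and no UMI of Mesp2 or Ripply2, with its other conditions kept. Cells chosen by this changed rule, not the same cells as the members, were 10.6% ± 0.167 (SD, n = 2) of WT and 6.46% ± 0.677 (SD, n = 2) of null cells. Their log2 difference was -0.72 (edgeR adjusted p = 9.47e-05). At most 45000 UMIs, under the unchanged rule, members were 10.8%, 11.4%, 8.21% and 6.81%, a log2 difference of -0.57 (edgeR adjusted p = 0.000341).

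Among presomitic cells of either kind, the members were a larger part in null than in WT libraries. The members were 61.5% (95% exact binomial interval 58.4 to 64.4), 62.0% (58.9 to 65.0), 92.3% (89.7 to 94.4) and 93.4% (90.9 to 95.5) of presomitic cells. These intervals cover counting error only. In male cells the members were 86.5%, 87.7%, 95.0% and 96.5% of presomitic cells and in female cells 51.7%, 52.2%, 90.4% and 90.6%. Among WT female cells of at most 45000 UMIs they were 47.4% and 49.1%. The pooled difference of 31.1 percentage points had an exact two-sided permutation p of 0.333 over libraries, the smallest that 2 against 2 libraries allow. The presomitic cells with Hoxc10 or Hoxd11 UMIs, called Hox-positive here, numbered 402, 382, 43 and 32. Their share of male and of female cells had log2 differences of -3.07 and -2.93 (edgeR adjusted p = 2.97e-06 and 4.00e-08). The female minus the male difference, 0.14, did not pass (edgeR adjusted p = 0.744). Hoxc10, which the rule used, was at 102, 102, 1.95 and 1.89 CPM in the T and Sox2 progenitors (at least 3 UMIs of each) of at most 45000 UMIs. Endothelial cells held a UMI of Hoxc10 or Hoxd11 in 32 of 186 WT and 22 of 214 null cells. Endothelium is no free-RNA background for these genes, since Hoxa10 was found in 21.9% and 18.9% of WT endothelial cells against 4.99% and 5.61% of WT members at medians of 36461, 37934, 36455 and 36814 UMIs. The Hox-positive share of presomitic cells was 38.5% and 38.0% in WT and 7.72% and 6.56% in null, and how much of the latter is free RNA was not tested. With cells thinned to 7500 UMIs and chosen by the changed rule given above, those without Hoxc10 or Hoxd11 UMIs were 72.1% ± 0.505 (SD, n = 2) of WT and 98.3% ± 1.35 (SD, n = 2) of null presomitic cells.

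**Figure D2:**
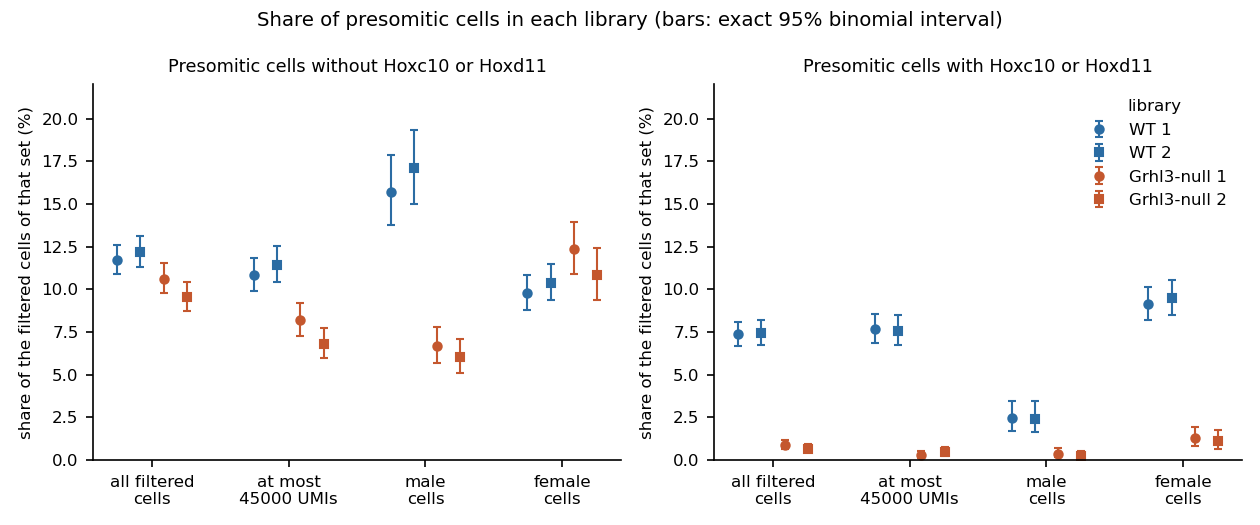
Share of filtered cells (y axis, %) that were presomitic without (left) and with (right) Hoxc10 or Hoxd11 UMIs, for each library, in all filtered cells, cells of at most 45000 UMIs, male and female cells; bars are exact 95% binomial intervals. Members were 15.7% and 17.1% of WT against 6.67% and 6.04% of null male cells, whereas the female cells of the genotypes lay close together (left panel). In the right panel the genotypes were apart in both sexes, at means of 9.32% in WT and 1.22% in null female cells. Male cells there had means of 2.43% in WT and 0.284% in null.

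The lower share lay in the male cells. A male cell held 2 or more UMIs of the Y-linked genes with Xist at 2 or fewer, and a female cell held 3 or more of Xist with no more than 1 Y-linked UMI. Members were 15.7%, 17.1%, 6.67% and 6.04% of male cells (log2 difference -1.37, edgeR adjusted p = 1.24e-07), and no WT library overlapped a null library. Among female cells they were 9.78%, 10.4%, 12.4% and 10.8% (log2 difference 0.20, edgeR adjusted p = 0.0895). The difference between the female and the male genotype effect was 1.57 on the log2 scale (edgeR adjusted p = 9.52e-06), and 1.88 at most 45000 UMIs (edgeR adjusted p = 4.06e-05). Females were 73.5%, 73.0%, 44.4% and 42.5% of all sexed filtered cells but 63.3%, 62.2%, 59.7% and 57.0% of sexed members. With 5 and 3 embryos in the pools, sex cannot be told apart from the single embryos or from their stage.

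Sox2 was low in the members and T was high, unlike in progenitors and somite cells, respectively. Classes were compared in the WT cells of at most 45000 UMIs, as a description with no test, because the null libraries held only 9 and 15 Hox-positive and 5 and 3 segmenting cells under that limit. T, the tail progenitor factor, was at 263 ± 4.61 CPM (SD, n = 2) in the members, 262 ± 13.5 in the T and Sox2 progenitors and 25.8 ± 6.41 in somite cells (at least 3 UMIs each of Meox1 and Tcf15). Sox2 was at 8.36 ± 2.12 CPM in the members and 167 ± 1.02 in those progenitors, and both genes had served to choose those progenitors.

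Wnt and Fgf genes divided the classes in another way. Dkk1, a secreted Wnt antagonist, was highest in presomitic cells, at 147 ± 3.23 CPM (SD, n = 2) in the members, 117 ± 3.86 in Hox-positive cells and 9.54 ± 3.32 in the T and Sox2 progenitors. Fgf3 followed it, with 116 ± 2.79 CPM in the members, 113 ± 3.10 in Hox-positive cells and 12.6 ± 2.85 in the progenitors. Fgf8, the main Fgf of the tail, had the opposite order, with 282 ± 1.98 CPM in the members and 534 ± 19.9 in the progenitors. Cyp26a1, which breaks down retinoic acid, was at 109 ± 8.18 CPM in the members, 188 ± 21.1 in Hox-positive cells and 198 ± 0.663 in the progenitors. Nrarp, a Notch target and inhibitor, was at 98.9 ± 0.779 CPM in the members and 229 ± 1.89 in the Hox-positive cells. Pcdh19, an adhesion protein, climbed from 5.32 ± 2.33 CPM in the progenitors to 201 ± 3.25 in the members and 490 ± 57.4 in segmenting cells (at least 3 UMIs of Mesp2 and Ripply2).

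**Figure D3:**
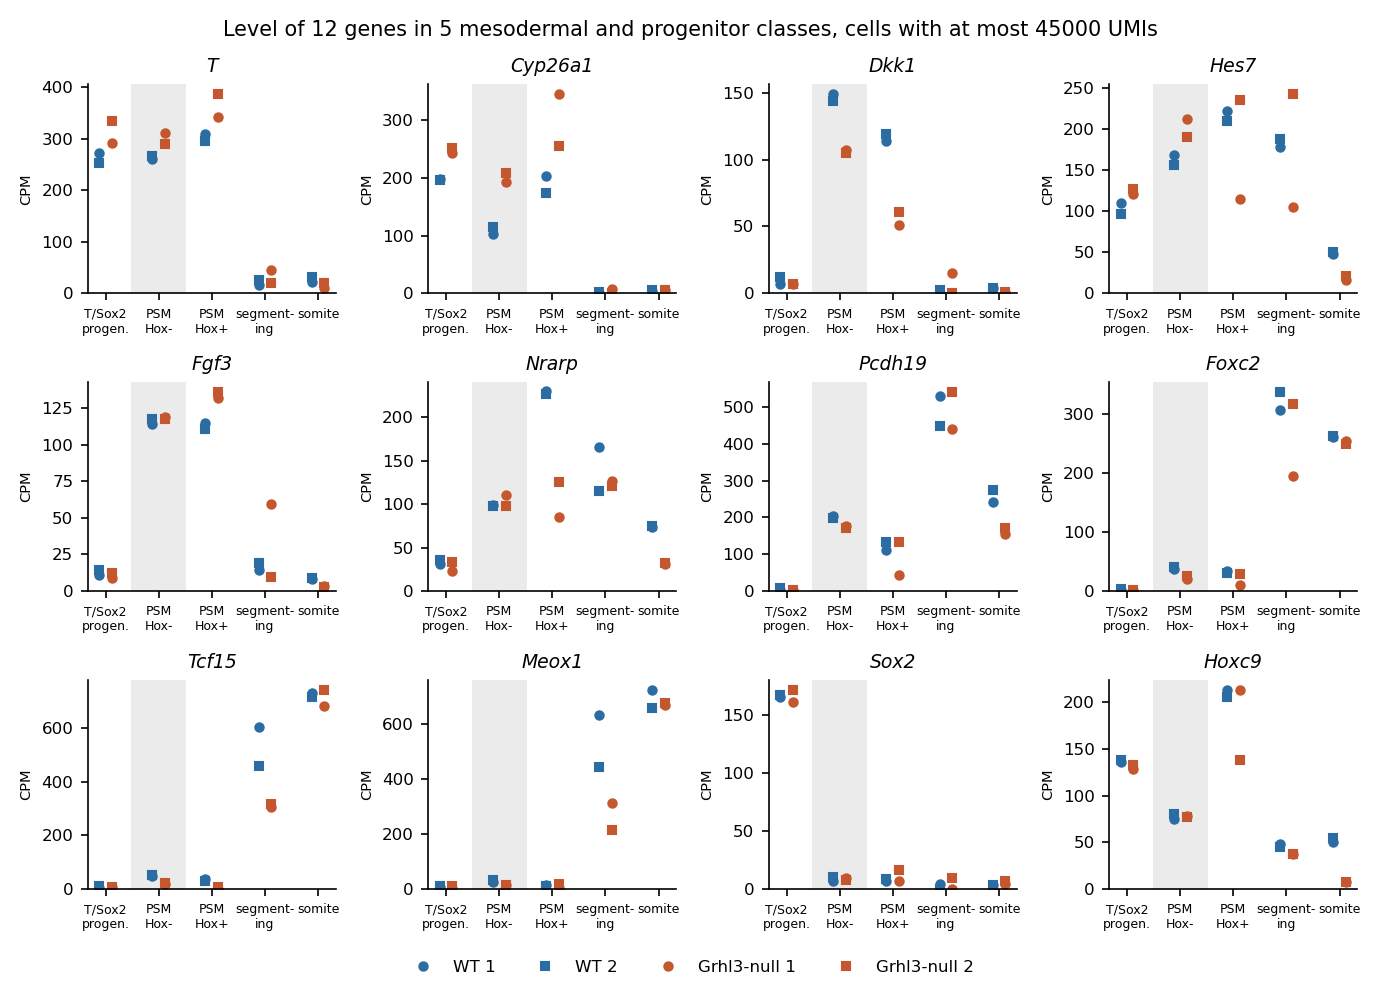
Levels (y axis, CPM) of 12 genes in T and Sox2 progenitors, members (PSM Hox-, shaded), Hox-positive presomitic cells (PSM Hox+), segmenting and somite cells of at most 45000 UMIs; each point is 1 library. Dkk1 and Fgf3 stand high in presomitic cells alone, Sox2 in the progenitors, and Tcf15 and Meox1 in segmenting and somite cells; the 2 null libraries rest on 9 and 15 Hox-positive and 5 and 3 segmenting cells.

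Genes with the highest fold of members over all other filtered cells included the rule genes Tbx6 (mean log2 fold 2.74), Dll1 (2.35) and Dll3 (2.01). Those outside the rule were Fgf3 (2.10), Dkk1 (1.81), Pcdh19 (1.81), Cited1, a transcriptional co-regulator (1.74), Plxna2, a semaphorin receptor (1.70), Hes7 (1.62), the membrane raft protein gene Rftn1 (1.59), Fgf4 (1.5), Lmo1 (1.48) and the sphingosine-1-phosphate receptors S1pr5 (1.40) and S1pr3 (1.39). Folds are means over the 4 libraries with 5 CPM added, and run over all depths, and no test was made, since the members were chosen by measured values. Rspo3, a rule gene and Wnt agonist, completed the list at 1.77.

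Against Hox-positive presomitic cells the members had higher levels of Pcdh19, Aldh1a2, Tcf15 and Meox1, but also of Fgf4, Fgf15 and Nr6a1, and lower levels of further Hox genes. These folds cover all depths. Pcdh19 was at 211, 218, 164 and 165 CPM in the members and 114, 126, 95.0 and 108 CPM in Hox-positive cells. Aldh1a2, which makes retinoic acid, had a mean log2 fold of 0.85, Tcf15 of 0.78 and Meox1 of 0.75, and Fgf15 had 0.85, Fgf4 0.71 and the nuclear receptor gene Nr6a1 0.64. Under the limit of 45000 UMIs the fold of Aldh1a2 was -1.46 in Grhl3-null replicate 2, whose 15 Hox-positive cells it rests on, against 1.83, 1.79 and 2.19 in the other libraries. Lower in the members, beside Hoxc10 and Hoxd11 of the rule, were Hoxa10 (-1.89), Hoxd10 (-1.07), Hoxc9 (-1.16) and Hoxa9 (-0.86), and outside the Hox family Pitx1, a hindlimb factor (-1.50), the secretin gene Sct (-1.29) and Msx2, a Bmp target (-0.90). By library the fold was -3.04, -3.12, -1.07 and -0.31 for Hoxa10 and -1.75, -1.90, -0.30 and -0.32 for Hoxd10. Under the limit of 45000 UMIs Hoxa10 was at -0.55 and 0.29 in the null libraries. The Y-linked Eif2s3y and Ddx3y were higher in the members (0.70 each), which goes with the sex of the cells: males were 198 of 539 sexed WT replicate 1 members but 31 of 350 of its sexed Hox-positive cells.

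Within the members, genes varied from cell to cell along an axis from T to the somite factors. Pearson's r of log-scaled counts per 10000 was computed within each library over the members of at most 45000 UMIs and averaged over the 4 libraries. These values describe cells that share their library and its depth, and carry no p. T went with Fgf17 (mean r 0.71), Cyp26a1 (0.61), the glucose transporter gene Slc2a3 (0.60), Wnt3a (0.57) and Fgf8 (0.50). It went against Foxc2, a forkhead factor of the anterior presomitic mesoderm and somites (-0.48), and against Tcf15 (-0.39). Meox1 went with Tcf15 (0.69), and Foxc2 with Tcf15 (0.59) and Foxc1 (0.54). Each of these values kept its sign in all 4 libraries.

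The spread along this axis was wide. In members of at most 45000 UMIs the median T count per cell was 5, 6, 7 and 7 UMIs, with 10% of cells at or under 1, 1, 1 and 2 UMIs. Ranked by residual variance over 11219 genes, the most variable genes in all members were Phlda2, Xist, Tcf15, Meox1, Mest, Cyp26a1, Slc2a3, Cited1, Malat1, Tpm1, T, Dkk1, Fgf8, Ube2c and Aldh1a2. Phlda2 and Mest are imprinted genes, Xist marks the cell's sex and Ube2c is a mitotic gene. Under the limit of 45000 UMIs the first 3 were Xist, Phlda2 and Ube2c, and Meox1 and Tcf15 stood at ranks 7 and 9.

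Grhl3 itself was nearly absent from the null members. Its reads in all filtered cells came to 878, 803, 12 and 14 UMIs, and in the members to 75, 82, 1 and 1 UMIs, or 2.62, 2.96, 0.0323 and 0.0368 CPM. The gene lies at chr4:135541888-135573630 (mm10, minus strand). With 1 UMI in each null library the level there was at or under the floor of 3 counts, 0.0969 and 0.111 CPM.

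Across all genes, 436 of 13465 tested were higher and 158 lower in null members (edgeR quasi-likelihood fit; a call needed an adjusted p under 0.05 together with a log2 change of 0.5 or more either way), 3.24% and 1.17% of the genes tested. Under the limit of 45000 UMIs 198 of 11734 were higher and 93 lower, 1.69% and 0.793%. These shares over all genes are the background for the counts of list genes given below. Both fits called 97 genes higher, 22.2% of the first and 49.0% of the second list, and 45 genes lower, 28.5% and 48.4%. Of the 415 genes called in all members and tested under the limit, 59 changed sign there, and 3 of them, Meox1, Nr2f2 and Col26a1, were called in both directions. In that limited set a fit without Grhl3-null replicate 1 called 3 genes higher and 2 lower, and one without replicate 2 called 2 and 1, against 119 and 52 without WT replicate 1 and 129 and 57 without WT replicate 2. Genes at an unadjusted p under 0.05 numbered 1775 and 2039 without either null library and 2846 with all 4. In all members, leaving out WT replicate 2 gave 269 higher and 98 lower genes.

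The 10 largest rises in all members were those of Gm10036, Gm10093, Nr2f1, Gm10282, Igfbp5, Twist1, Pax6, Pax3, Stc2 and Foxd1. Nr2f1, an orphan nuclear receptor, was at 5.34, 3.18, 19.7 and 27.1 CPM (log2 fold change 2.43 ± 0.19 (SE), edgeR adjusted p = 2.34e-05), and Twist1, a mesenchymal factor, at 13.6, 16.3, 39.8 and 33.9 CPM. Igfbp5, which binds insulin-like growth factors, was at 7.64, 9.21, 24.6 and 21.7 CPM. Twist1 and Foxd1 turned under the limit, to log2 fold changes of -0.15 and -0.21 that did not pass, and Nr2f1 was too low there to be tested. In female members Nr2f1, Twist1 and Foxd1 were at -0.53, -0.37 and -0.29, none of which passed. Igfbp5 was called under the limit too (0.99 ± 0.28 (SE), edgeR adjusted p = 0.0280). The 10 largest rises under the limit again held the 3 Gm genes and Stc2, with Krt19, Cldn6, Bnip3, Pfkp, Arhgap29 and Rab26os beside them. Krt19, an epithelial keratin, was at 4.6, 5.37, 16.9 and 16.6 CPM there (log2 fold change 1.75 ± 0.15 (SE), edgeR adjusted p = 1.56e-07). Arhgap29 was at 9.36, 9.55, 20.8 and 20.4 CPM. The genotypes did not overlap in these values.

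The Gm genes are close copies of others, so their reads may be split by the counting. Gm10036 (4.71, 3.83, 339 and 301 CPM) matched Rpl11 over its whole transcript at 99.3% identity, Gm10093 matched Hdac1 at 99.4% and Gm10282 matched Hmgn2 at 99.3%. The sum of Rpl11 and Gm10036 was 3476, 3469, 3307 and 3262 CPM. Hdac1, a histone deacetylase, was at 154, 152, 64.3 and 60.7 CPM on its own and at 155, 153, 111 and 101 CPM with Gm10093 added. The fold of each copy is therefore uncertain, and the sums of the pairs differed far less. Rpl11, Hmgn2 and Hdac1 lie on chromosome 4 as Grhl3 does, at 0.45, -1.57 and -6.00 Mb from it.

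The largest falls in all members included those of Stmn1, Tcea3, Pou5f1, Hdac1, 3110004A20Rik, Dkk1, Tceanc2, Aunip and Mfap4. Stmn1, which destabilises microtubules, was at 1052, 1079, 345 and 408 CPM (log2 fold change -1.52 ± 0.06 (SE), edgeR adjusted p = 2.78e-07). Several of these genes lie near Grhl3 on chromosome 4. Stmn1 is at chr4:134468320-134473843, Aunip at chr4:134510999-134523927 and Tcea3, a transcription elongation factor, at chr4:136247729-136274898 (mm10). Within 5 Mb of Grhl3, 125 genes were tested, of which 4 were higher and 8 lower beside Grhl3 itself, and within 10 Mb 6 were higher and 10 lower of 220, beside shares of 3.24% higher and 1.17% lower over all genes. Under the UMI limit 4 of 108 genes within 5 Mb were higher and 5 lower. In somite cells Stmn1 was at 1039, 1071, 356 and 424 CPM, and the difference of the genotype effects, -0.07 ± 0.03 (SE), did not pass (edgeR adjusted p = 0.130). Whether these genes change through the allele's neighbourhood or through Grhl3 cannot be told apart. Pou5f1, a pluripotency factor of early progenitors, was at 16.4, 17.4, 7.17 and 6.37 CPM (log2 fold change -1.33 ± 0.08 (SE), edgeR adjusted p = 7.61e-06).

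Of the Notch pathway and the clock, the repressors Hes1 and Hes5 rose in the pooled members under the UMI limit, but not in male members, where Hes5 fell (-0.65) and Hes1 was at -0.07. Hes1 was at 43.1, 39.2, 79.2 and 67.6 CPM in members of at most 45000 UMIs (log2 fold change 0.84 ± 0.08 (SE), edgeR adjusted p = 4.04e-07) and rose in all members too (0.62 ± 0.07). Hes5 was at 36.9, 40.0, 64.9 and 53.6 CPM (log2 fold change 0.63 ± 0.08 (SE), edgeR adjusted p = 3.29e-05). Both null libraries were above both WT libraries for each gene. In all members the log2 fold change of Hes5 was 0.43 and stayed under 0.5. The clock repressor Hes7 was at 168, 156, 212 and 190 CPM, a log2 fold change of 0.31 that stayed under the limit of 0.5. Lfng, the glycosyltransferase that gates Notch in the clock, was at 17.5, 18.5, 19.1 and 19.9 CPM and Nrarp at 99.5, 98.4, 110 and 97.5 CPM. The receptor Notch1 was at 103, 105, 120 and 108 CPM. Of the 14 list genes outside the rule that were tested, 1 was called higher in all members and the other 13 were not called (median log2 fold change 0.11, against 0.0069 over all genes). Under the limit 2 of 13 were called higher (median 0.13, against 0.0028).

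Hes7 and Lfng varied together among members, and promoters of both are shown for the Notch effector's site. Their mean r was 0.33 over the 4 libraries, Hes1 and Hes5 had 0.41, and Lfng and Hes5 had 0.29. The core bound by RBPJ, the DNA-binding partner of Notch, was searched as TGGGAA or its complement TTCCCA in RefSeq promoters of GRCm38.p6, from 250 bases before to 50 after the start. Capitals mark the matches in Hes7 (chr11:69120203-69120502, plus strand) and Lfng (chr5:140607091-140607390, plus strand).
Hes7: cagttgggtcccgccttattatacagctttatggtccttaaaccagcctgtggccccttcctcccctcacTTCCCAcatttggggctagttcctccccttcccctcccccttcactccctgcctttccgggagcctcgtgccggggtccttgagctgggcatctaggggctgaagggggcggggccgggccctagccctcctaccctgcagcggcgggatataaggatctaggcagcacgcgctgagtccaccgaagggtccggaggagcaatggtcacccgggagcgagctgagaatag
Lfng: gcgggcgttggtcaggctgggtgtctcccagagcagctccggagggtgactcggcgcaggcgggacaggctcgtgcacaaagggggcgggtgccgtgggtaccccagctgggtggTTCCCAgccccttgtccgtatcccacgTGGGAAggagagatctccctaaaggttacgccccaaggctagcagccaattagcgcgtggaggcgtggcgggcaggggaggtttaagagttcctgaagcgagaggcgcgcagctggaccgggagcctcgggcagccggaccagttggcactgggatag
Hes7 held 1 match, 180 bases before the start, and Lfng held 2, at 135 and 108 bases before it. Hes5 also held 2, at 226 and 82 bases before its start. The letters occur in 8397 of 32851 promoters of this length (25.6%), so a match is a description and not a binding site.

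Of the Wnt genes, 4 were called lower in all members and 1 under the UMI limit, and the others were not called. Dkk1 was at 108, 113, 58.8 and 60.2 CPM in all members (log2 fold change -0.91 ± 0.04 (SE), edgeR adjusted p = 5.47e-07), and at 149, 145, 108 and 106 CPM under the limit, where its log2 fold change of -0.46 ± 0.05 (SE) no longer passed 0.5. Sp5, a direct Wnt target, was at 150, 154, 107 and 106 CPM (log2 fold change -0.53 ± 0.03 (SE)), and at 174, 176, 144 and 140 CPM under the limit (-0.30). Nkd2, a feedback inhibitor, was called in both, with 21.5, 26.6, 15.6 and 16.6 CPM under the limit (log2 fold change -0.58 ± 0.12 (SE), edgeR adjusted p = 0.00294). In Dkk1, Sp5 and Nkd2 both null libraries lay below both WT libraries. Under the limit the ligand Wnt3a was at 44.1, 43.1, 47.5 and 42.2 CPM and the Wnt target Axin2 at 56.8, 60.9, 71.8 and 73.8 CPM. The nuclear effector Lef1 was at 342, 355, 330 and 346 CPM there, and none of these genes was called. Among 20 list genes outside the rule, 4 were called lower in all members (Dkk1, Sp5, Nkd2 and the ligand Wnt8a, which stood at 1.85, 3.11, 1.45 and 1.33 CPM), with a median of -0.08. Under the limit 1 of 19 was called lower, with a median of 0.05. Of all genes tested, 1.17% were lower in all members and 0.793% under the limit.

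Dkk1 and Sp5 moved together from cell to cell, with a mean r of 0.30. Their RefSeq promoters (GRCm38.p6) are shown for the core of the LEF/TCF site, CTTTGA or its complement TCAAAG, in capitals, for Dkk1 (chr19:30549447-30549746, minus strand) and Sp5 (chr2:70474673-70474972, plus strand).
Dkk1: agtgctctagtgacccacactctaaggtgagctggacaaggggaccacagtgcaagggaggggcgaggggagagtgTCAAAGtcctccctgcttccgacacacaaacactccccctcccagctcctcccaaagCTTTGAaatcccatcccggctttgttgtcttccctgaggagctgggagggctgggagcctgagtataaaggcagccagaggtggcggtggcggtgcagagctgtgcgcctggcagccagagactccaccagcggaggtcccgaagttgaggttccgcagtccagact
Sp5: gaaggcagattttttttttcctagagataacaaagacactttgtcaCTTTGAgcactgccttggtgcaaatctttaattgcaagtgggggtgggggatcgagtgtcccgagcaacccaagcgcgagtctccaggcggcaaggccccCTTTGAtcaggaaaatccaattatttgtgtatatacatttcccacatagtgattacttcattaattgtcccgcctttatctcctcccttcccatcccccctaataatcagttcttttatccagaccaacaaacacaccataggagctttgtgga
Dkk1 held the letters at 174 and 117 bases before the start, and Sp5 at 204 and 104 bases before it. T held 1 match, at 234 bases. Of all promoters 5257 of 32851 (16.0%) hold these letters.

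Fgf genes were close to level. Fgf8 was at 280, 283, 285 and 243 CPM, Fgf3 at 114, 118, 119 and 118 CPM, and Fgf4 at 19.7, 19.3, 21.6 and 20.9 CPM under the UMI limit. The feedback phosphatase Dusp6 was at 82.6, 79.8, 80.3 and 84.9 CPM and the feedback inhibitor Spry4 at 35.8, 34.6, 44.8 and 48.9 CPM (log2 fold change 0.41). Across the 18 Fgf genes under the limit the log2 fold changes ran from -0.44 for Fgf18 to 0.63 for Fgfr2, which did not pass the test there (edgeR adjusted p = 0.294), with a median of 0.17. In all members the receptor Fgfr2, at 4.85, 4.48, 12.3 and 12.1 CPM, was called higher (log2 fold change 1.37 ± 0.09 (SE), edgeR adjusted p = 1.09e-05), 1 of 18 (median 0.05).

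Under the UMI limit Cyp26a1 rose and Aldh1a2 fell, whereas neither was called in all members. Cyp26a1 was at 104, 115, 193 and 210 CPM in members of at most 45000 UMIs (log2 fold change 0.88 ± 0.05 (SE), edgeR adjusted p = 1.77e-09), with both null libraries far above both WT libraries. Aldh1a2 was at 32.7, 30.1, 17.9 and 9.42 CPM (log2 fold change -1.17 ± 0.15 (SE), edgeR adjusted p = 3.46e-05). Neither gene was called in male members under the UMI limit. Cyp26a1 was at 0.36 there, under 0.5, and Aldh1a2 at -0.42 (edgeR adjusted p = 0.495), against 1.32 and -1.95 in female members. In all members Cyp26a1 had a log2 fold change of 0.48, just under the limit of 0.5, and Aldh1a2 was at 46.8, 48.1, 53.2 and 51.1 CPM with no call (0.12). Of 12 list genes, 2 were called higher in all members, the dehydrogenase Rdh10 and the receptor Rarb (median 0.11). Under the limit 1 of 11 was called higher and 1 lower (median -0.03).

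Bmp genes gave 1 antagonist that fell and several targets that rose. Fst, follistatin, which binds activins and Bmps, was at 88.6, 101, 37.9 and 38.1 CPM under the limit (log2 fold change -1.32 ± 0.07 (SE), edgeR adjusted p = 3.13e-10), and it fell in all members as well (-0.56 ± 0.04), although male members of all depths gave 0.38, which did not pass. Id1, a Bmp target that blocks bHLH factors, was at 177, 193, 282 and 264 CPM (log2 fold change 0.56 ± 0.05 (SE), edgeR adjusted p = 2.66e-07). Its relative Id2 was at 38.9, 38.9, 73.5 and 69.8 CPM (log2 fold change 0.88 ± 0.06 (SE), edgeR adjusted p = 1.72e-08). Null libraries were below WT for Fst and above WT for both Id genes without overlap. The target Msx2 (0.63) and the ligand Bmp7 (0.98) were also called higher under the limit. In all, 4 of 14 were higher and 1 lower (median 0.42), and in all members 3 of 15 were higher, Id2, Bmp5 and Grem1, and 1 lower (median 0.22). Over all genes 1.69% were higher and 0.793% lower under the limit, and 3.24% and 1.17% in all members. The antagonist Grem1 turned to -0.83 under the limit and did not pass there (edgeR adjusted p = 0.268).

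Meox1 turned direction with the depth of the cells, and Tcf15 was called lower under the limit alone. Under the limit Tcf15, a somite bHLH factor, was at 47.3, 51.2, 17.6 and 19.8 CPM (log2 fold change -1.40 ± 0.09 (SE), edgeR adjusted p = 1.77e-09), and the homeobox gene Meox1 at 25.4, 30.1, 12 and 14 CPM (-1.10 ± 0.12, edgeR adjusted p = 3.25e-06). In all members Meox1 was at 53.6, 49.5, 94.6 and 106 CPM, and rose (0.94 ± 0.06, edgeR adjusted p = 5.92e-06). Both directions were without overlap between genotypes. The UMI bins show where the turn lies: Meox1 was at 38.1 CPM in WT and 5.36 CPM in null members of up to 30000 UMIs, but at 82.6 and 162 CPM in those over 80000 UMIs. The somite sclerotome gene Pax1 (0.349, 0.469, 5.36 and 4.09 CPM), Tbx18 and Uncx, which mark its front and its back, and Meox2 and Foxd1 were called higher in all members, and under the limit Pax1, Tbx18 and Uncx were too low to be tested.

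The fall of anterior genes under the limit included genes of the boundary. Mesp1, which acts beside Mesp2, was at 6.01, 4.50, 1.55 and 2.08 CPM (log2 fold change -1.54 ± 0.29 (SE), edgeR adjusted p = 0.00144). Pcdh8, a protocadherin of the forming boundary, was at 10.1, 6.39, 1.31 and 3.74 CPM (-1.76 ± 0.32, edgeR adjusted p = 0.00111). Foxc2 was at 36.7, 40.6, 20.1 and 26.0 CPM (-0.75 ± 0.10, edgeR adjusted p = 3.63e-05). Mesp1 and Pcdh8 were lower in all members too (-1.21 and -0.76). Pax3, a dermomyotome and neural crest factor, went up in both, with 4.92, 5.37, 7.98 and 9.97 CPM under the limit (0.79 ± 0.18, edgeR adjusted p = 0.00745). Of the list outside the rule, 7 of 16 were called higher and 2 lower in all members (median 0.69), and 1 of 12 higher and 5 lower under the limit (median -0.36). The shares over all genes were 3.24% higher and 1.17% lower in all members, and 1.69% and 0.793% under the limit.

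Progenitor and neural genes rose in all members and mostly did not under the limit. Sox2 was at 16.0, 17.8, 39.0 and 36.8 CPM in all members (log2 fold change 1.15 ± 0.06 (SE), edgeR adjusted p = 4.85e-06) and at 6.87, 9.86, 9.05 and 7.89 CPM under the limit (0.03), where the libraries of the genotypes overlapped. Sox3, Sox1, Hes3 and Irx3 had the same pattern. Epha5, an ephrin receptor, was called higher in both, with 77.9, 81.0, 117 and 110 CPM under the limit (0.52 ± 0.06, edgeR adjusted p = 3.25e-06), as was Pax6, at 5.46, 5.29, 7.39 and 9.28 CPM (0.62 ± 0.18, edgeR adjusted p = 0.0342). In all members 8 of 11 were called higher (median 0.64), against 3.24% of all genes, and under the limit 2 of 10 (median -0.04), against 1.69%.

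Among genes of mesoderm entry, T was at 260, 267, 310 and 289 CPM under the limit (log2 fold change 0.19) and the epithelial-to-mesenchymal factor Snai1 at 64.5, 62.5, 72.7 and 73.8 CPM (0.21), both under the limit of 0.5. Mixl1, a primitive streak homeobox gene, was at 22.8, 23.1, 35.1 and 36.1 CPM (0.64 ± 0.08, edgeR adjusted p = 3.50e-05). Vim, the intermediate filament vimentin, was at 105, 108, 62.8 and 61.3 CPM (-0.78 ± 0.06, edgeR adjusted p = 1.73e-08). The genotypes did not overlap in any of these 4 genes. Of 13 tested, 1 was called higher and 1 lower both in all members (Snai2 and Vim, median -0.03) and under the limit (Mixl1 and Vim, median 0.08).

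Of 16 glycolytic genes and glucose transporters, Slc2a3, Pfkp and Pdk1 rose at both depths, and most of the others were not called. Slc2a3, a high-affinity glucose transporter, was at 74.1, 85.5, 172 and 161 CPM under the limit (log2 fold change 1.06 ± 0.06 (SE), edgeR adjusted p = 7.28e-10) and at 127, 120, 230 and 209 CPM in all members (0.81). The phosphofructokinase Pfkp was at 10.1, 8.13, 21.7 and 21.3 CPM (1.24 ± 0.13, edgeR adjusted p = 2.29e-06). Pdk1, which holds pyruvate back from the mitochondria, was at 27.5, 26.4, 49.0 and 53.9 CPM (0.93 ± 0.08, edgeR adjusted p = 8.75e-08). For these genes both null libraries exceeded both WT libraries at either depth. Slc2a1 (0.57) and the hexokinase Hk2 (0.61) were also called under the limit. Ldha, lactate dehydrogenase, was at 3038, 2988, 3346 and 3329 CPM (0.15) and was not called. In total 5 of 16 were higher (median 0.32) under the limit and 3 of 16 in all members (median 0.09), against 1.69% and 3.24% of all genes.

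Outside the lists, Bnip3 and Stc2 stood among the 10 largest rises under the limit. Bnip3, a mitophagy receptor, was at 54.4, 50.6, 131 and 118 CPM under the limit (log2 fold change 1.25 ± 0.06 (SE), edgeR adjusted p = 1.32e-10). Stc2, a secreted stress glycoprotein, was at 5.77, 6.55, 16.4 and 19.1 CPM there (1.52 ± 0.14, edgeR adjusted p = 6.21e-07) and at 7.39, 7.55, 16.8 and 17.5 CPM in all members. No overlap between genotypes occurred for either gene.

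Few Hox, Cdx and cell cycle genes were called. For Hox genes this holds only for cells chosen to lack Hoxc10 and Hoxd11, a choice that left out far more WT than null cells. Of the 26 Hox genes of groups 1 to 9 the log2 fold changes in all members ran from -0.44 for Hoxd9 to 0.34 for Hoxa7 (median 0.08), all under the limit of 0.5. Under the UMI limit 1 of 25 was called, Hoxa7, at 108, 99.7, 151 and 163 CPM (0.60 ± 0.06, edgeR adjusted p = 5.06e-07; median 0.20). Of groups 10 to 13 only Hoxa10, at 1.85, 1.70, 1.16 and 0.958 CPM, was high enough to be tested, and it was called lower in all members (-0.75 ± 0.24, edgeR adjusted p = 0.0435) but not under the limit (-0.61, edgeR adjusted p = 0.469). The 8 genes of the Cdx and axis-length list ran from -0.38 for Isl1 to 0.24 for Lin28b in all members (median -0.03) and from -0.26 for Cdx1 to 0.26 for Gdf11 under the limit (median 0.09). The 15 S and G2/M genes ran from -0.27 for Cdk1 to 0.20 for Ccne2 (median -0.08) and from -0.25 for Ccne1 to 0.32 for Ccne2 (median -0.09). The proliferation gene Mki67 was at 175, 167, 153 and 170 CPM under the limit, so the genotypes overlapped.

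Dissociation genes moved both ways, and 1 null library stood apart in a histone transcript. Of 10 dissociation and stress genes tested in all members, Ier3 was called higher and Fos and Fosb lower (median -0.15), and of 8 under the limit Ier3 was higher and Fosb lower (median -0.16). Ier3, an immediate early gene, was at 4.21, 3.00, 10.8 and 11.5 CPM under the limit. Hist1h2ap, a replication histone, was at 138, 111, 121 and 377 CPM in all members. In members of at most 45000 UMIs its median was 11 UMIs a cell in Grhl3-null replicate 2 against 4, 3 and 3 in the other libraries. Among 6 sex-linked genes, Tsix, the antisense partner of Xist, was called higher at both depths (medians 0.25 and 0.20), and strand counting is not given in the sources used here.

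The highest sums of markers of other cell types were erythroid, 271 and 291 CPM in the first replicates of all members. Some markers of other cell types moved with the genotype. The 7 surface ectoderm markers summed to 113, 67.4, 90.6 and 70.6 CPM in all members and to 42.1, 46.2, 81.0 and 53.7 CPM under the limit, led by Krt8, and Krt8 (13.1, 14.5, 21.7 and 20.4 CPM) and Cldn6 (6.16, 8.05, 20 and 15 CPM) were called higher there, 2 of 5 tested. In all members 1 of 7 was called, Wnt6, which was lower. The 7 endoderm markers, led by Cldn6, summed to 26.9, 16.7, 33.6 and 34.7 CPM and to 10.5, 12.4, 28.1 and 20.1 CPM under the limit, with 2 of 7 and 2 of 3 called higher. The 8 visceral endoderm markers, led by Rbp4, summed to 9.14, 6.21, 14.2 and 18.2 CPM and to 5.77, 5.52, 12.7 and 16.5 CPM, with Apoa4 at 0 in the latter, and 4 of 7 and 3 of 4 were called higher. Cldn6 is in both the surface ectoderm and the endoderm list, so those sums and counts are not independent. Both Krt19 and these sums were higher in the null members of at most 45000 UMIs, and the part of other cells in its rise was not tested.

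Lateral and intermediate mesoderm markers, led by Osr1, summed to 102, 95.3, 104 and 116 CPM and to 68.4, 64.3, 72.7 and 109 CPM under the limit, with 3 of 7 called higher in all members and 1 of 5 higher (Foxf1) and 1 lower (Lhx1) under the limit. Endothelial markers, led by Etv2, summed to 15.0, 8.16, 26.5 and 20.2 CPM, with 3 of 7 called higher, and to 5.93, 9.47, 7.03 and 5.95 CPM under the limit, where 5 of 7 averaged under 1 CPM. Notochord markers, led by Shh in all members, summed to 13.3, 11.3, 14.1 and 12.9 CPM and to 5.85, 4.58, 7.39 and 4.02 CPM. Erythroid markers, led by Hba-x, summed to 271, 31.6, 291 and 37.1 CPM in all members, so both first replicates stood far above both second ones, and to 38.8, 34.2, 27.2 and 36.1 CPM under the limit. There 1 of 5, Hbb-y, was called lower. Germ cell markers were nearly all Pou5f1, with sums of 18.5, 20.1, 8.85 and 7.66 CPM, and the other 4 genes averaged under 1 CPM. There 2 of 4 tested were called lower, Pou5f1 and Dppa3, and under the limit 1 of 1.

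For some genes the genotype difference was not the same in female and male members. In the fit of female against male members of at most 45000 UMIs, the genotype effect differed for 153 of 10829 genes, 1.41%, and the count was 87 without WT replicate 1 and 95 without Grhl3-null replicate 1. Hes5 was at 24.8, 28.6, 79.8 and 75.3 CPM in female members (log2 fold change 1.55 ± 0.10 (SE)) and at 55.6, 54.0, 40.1 and 28.8 CPM in male members (-0.65 ± 0.13). The difference of these effects was 2.19 ± 0.16 (SE, edgeR adjusted p = 1.71e-20), with the genotypes apart in both sexes and in opposite directions. Hes1 was at 36.3, 39.4, 95.8 and 97.4 CPM in female and 55.4, 35.8, 50.9 and 34.4 CPM in male members, where the genotypes overlapped (difference 1.42 ± 0.16, edgeR adjusted p = 1.27e-10).

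The genotype effect on Meox1, Fst and Pou5f1 was lower in female than in male members, while for Pcdh8, Foxc2 and Mesp1 the difference did not pass. In male members the log2 fold changes of Meox1, Fst and Pou5f1 were -0.20, -0.49 and 0.19, and none was called. The female-minus-male difference was 0.26 for Pcdh8, -0.48 for Foxc2 and -1.33 for Mesp1 (edgeR adjusted p = 0.941, 0.256 and 0.483), the last with an SE of 0.76. Meox1 was at 36.3, 41.3, 9.22 and 7.27 CPM in female and 12.2, 13.8, 9.51 and 13.1 CPM in male members (difference -2.0 ± 0.30, edgeR adjusted p = 4.39e-07). Fst was at 117, 135, 36.3 and 35.3 CPM in female and 51.8, 52.2, 38.0 and 35.5 CPM in male members (difference -1.33 ± 0.16, edgeR adjusted p = 5.67e-10). Pou5f1 was at 25.6, 23.8, 7.01 and 2.60 CPM in female and 6.56, 9.11, 10.2 and 7.48 CPM in male members (difference -2.50 ± 0.36, edgeR adjusted p = 1.92e-07). In these genes the WT female members stood apart from the other 3 kinds of members. Aldh1a2 (difference -1.57) and 3110004A20Rik (-1.30) were the next lower genes, and Krt19 (1.73), Ndufa4l2, a relative of a respiratory chain subunit (1.33), and Pink1, a mitophagy kinase (1.28), were the other higher ones. Tcf15 fell in both sexes, by -2.03 in female and -0.82 in male members (difference -1.21 ± 0.23, edgeR adjusted p = 8.41e-05).

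Slc2a3, Stc2 and Bnip3 rose in both sexes. Slc2a3 was at 56.5, 78.2, 165 and 135 CPM in female and 96.3, 94.0, 181 and 196 CPM in male members, with log2 fold changes of 1.18 and 1.00. Their difference of 0.18 ± 0.11 did not pass (edgeR adjusted p = 0.550). Stc2 rose by 1.72 and 1.41 on the log2 scale, and Bnip3 by 1.54 and 0.92, the latter pair differing by 0.61 ± 0.12 (edgeR adjusted p = 0.000190). Cyp26a1 was at 70.9, 103, 222 and 207 CPM in female and 149, 131, 161 and 198 CPM in male members, and its effects of 1.32 and 0.36 differed by 0.96 ± 0.11 (edgeR adjusted p = 1.01e-10).

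**Figure D4:**
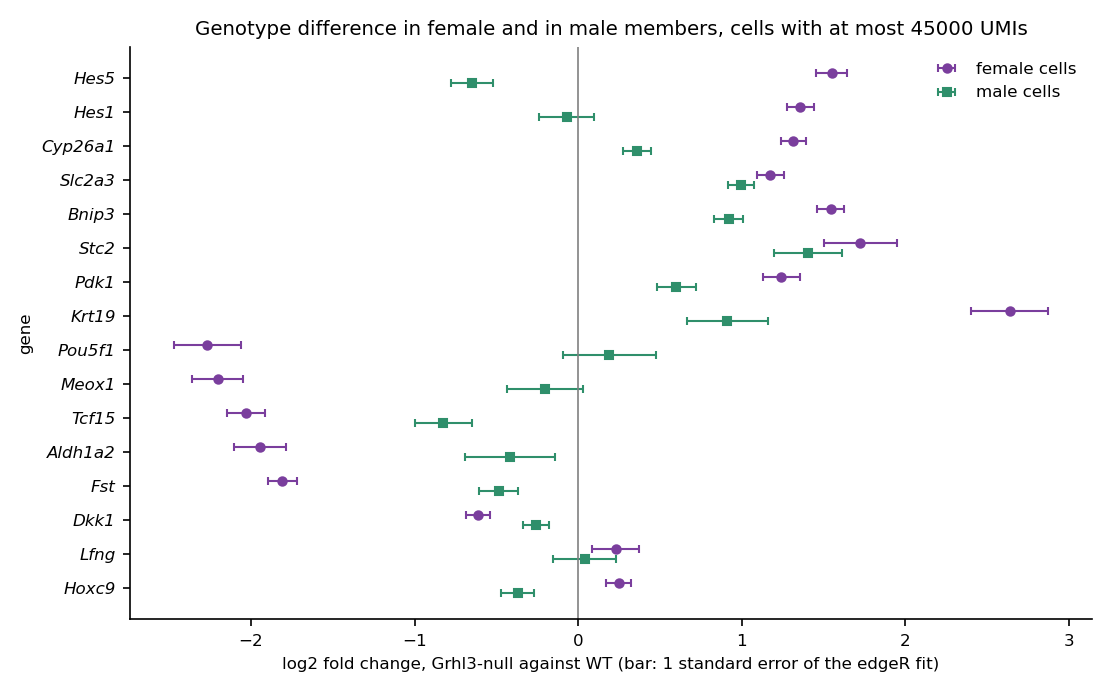
Log2 fold change of Grhl3-null against WT (x axis; bars are 1 standard error of the edgeR fit) for 16 genes in female (circles) and male (squares) members of at most 45000 UMIs. Hes5 is at 1.55 in female and -0.65 in male members, Meox1 at -2.20 and -0.20, whereas Slc2a3 is at 1.18 and 1.00.

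The genotype effect in the members was also set against that in the Hox-positive presomitic cells of the same libraries, 43 and 32 of them in the null libraries. It differed for 228 of 13699 genes, 1.66%. Btg2, an antiproliferative gene, was at 70.0, 74.1, 55.4 and 55.6 CPM in the members and 163, 172, 39.3 and 31.0 CPM in Hox-positive cells (difference 1.84 ± 0.10 (SE), edgeR adjusted p = 2.46e-10). Vim was at 103, 98.1, 74.0 and 69.6 CPM against 190, 194, 56.6 and 63.0 CPM (difference 1.23 ± 0.09, edgeR adjusted p = 2.88e-08). The null Hox-positive cells were deep, with medians of 69127 and 48030 UMIs against 33046 and 34394 in WT, and 23.3% and 21.9% of them carried transcripts of both sexes, against 8.96% and 9.69% in WT. The part of this in the differences was not tested, and the limit of 45000 UMIs left too few null cells for the fit. On the other side Phlda2 was at 320, 344, 253 and 244 CPM against 202, 200, 409 and 364 CPM (difference -1.36 ± 0.06, edgeR adjusted p = 4.32e-12). Pid1 (-1.60), Plac8 (-1.51), Lhx1 (-1.42) and the neurofilament gene Nefm (-1.39) were the other leading genes of that direction.

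Haemoglobin genes led the positive direction, Hba-x (3.56), Hbb-y (3.33), Hba-a1 (3.08) and Hbb-bh1 (2.22), but followed libraries. Hba-x was at 106, 9.10, 139 and 12.6 CPM in the members and 148, 9.91, 8.51 and 13.8 CPM in Hox-positive cells, so the effect rests on Grhl3-null replicate 1. Under the limit of 45000 UMIs the members held 11.9, 9.70, 10.5 and 13.6 CPM. Slc2a3 (-0.20, edgeR adjusted p = 0.144) and Bnip3 (-0.13, edgeR adjusted p = 0.493) did not differ past the threshold between the classes.

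Against somite cells, the genotype effect differed for Hoxc9, Hoxa9 and Hoxd9, with lower levels in null somite cells. All filtered cells gave 223 of 13758 genes with another genotype effect, 1.62% (139 without Grhl3-null replicate 2), and cells of at most 45000 UMIs gave 272 of 11910, 2.28%. Hoxc9 was at 74.4, 80.2, 78.5 and 77.0 CPM in the members and at 50.5, 54.1, 7.21 and 6.73 CPM in somite cells under the limit (difference 2.92 ± 0.12 (SE), edgeR adjusted p = 1.87e-13). Hoxa9 was at 84.7, 86.5, 109 and 108 CPM against 50.7, 54.8, 13.6 and 11.2 CPM (difference 2.44 ± 0.11, edgeR adjusted p = 3.83e-13), and Hoxd9 differed by 2.31. The rule bears on these values, since it left out 402 and 382 WT but only 43 and 32 null presomitic cells, in which Hoxc9 was higher than in the members, so nothing is read from the members' side of these differences. The fourth gene of the group, Hoxb9, was at 234, 245, 286 and 293 CPM in the members and 210, 226, 163 and 180 CPM in somite cells under the limit. The gene 2610528A11Rik (2.38) and Gm53 (2.34) followed. Hes7 was at 47.1, 49.5, 15.4 and 21.0 CPM in somite cells and differed by 1.71 ± 0.12 (edgeR adjusted p = 1.78e-09).

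Sex-linked genes moved in the same fit, and females were 89.4%, 90.4%, 17.0% and 11.7% of the sexed somite cells under the limit. Xist was at 633, 649, 146 and 99.2 CPM in somite cells and 447, 460, 578 and 514 CPM in the members (difference 2.67), and the Y-linked Eif2s3y (-2.69) and Ddx3y (-2.17) led the other direction. The part of sex in these differences was not tested. Col1a2, a collagen gene, was at 26.2, 22.4, 63.5 and 62.5 CPM in somite cells and 19.0, 21.5, 18.2 and 19.1 CPM in the members (-1.47 ± 0.14, edgeR adjusted p = 1.28e-07). Tcf15 led the same direction (-1.36), but its level in somite cells, 733, 719, 684 and 743 CPM, was held up by the choice of those cells, so nothing is read from it. Aldh1a2, at 243, 238, 289 and 291 CPM in somite cells, differed by -1.43. Bnip3 was level in somite cells, at 51.8, 53.2, 56.2 and 53.8 CPM, and its rise in the members differed by 1.18 ± 0.09 (edgeR adjusted p = 2.08e-09). Slc2a3 was at 23.2, 17.8, 33.6 and 28.6 CPM in somite cells and its difference of 0.49 stayed under 0.5, whereas over all filtered cells it was 0.80 ± 0.11 (edgeR adjusted p = 0.000182) and was called. In all filtered cells the leading genes included Nr2f1 (1.77) and Zic5 (1.16), higher, and Pax6 (-1.20) and Pou5f1 (-0.86), lower.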

How the data were processed

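The deposited files held UMI counts per gene and cell for 4 droplet libraries, which the authors made with Cell Ranger against mm10. Barcodes were those the authors deposited, filtered as stated in the report. Doublets were not removed in the main fits. Cells among the 5% with the highest Scrublet score (scanpy 1.11.5) were removed as an alternative, and the limit of 45000 UMIs was added after seeing the data. The members and all 23 gene lists were chosen with earlier results of these data known.

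Counts were summed over the members of each library and fitted with edgeR 4.0.16 (quasi-likelihood, TMM scaling, filterByExpr) in R 4.3.3, with Benjamini-Hochberg adjustment over all genes tested. Differences between classes or sexes came from an interaction term in a fit with the library as a term. Shares were fitted by edgeR on the cell numbers of 5 classes, and single shares have exact Clopper-Pearson 95% intervals. DESeq2 1.42.0, other filters, scalings and rule limits, and leaving out each library were alternatives. On simulated counts the genotype fit recovered 200 of 200 genes changed by a log2 fold of 1, with 3 wrong calls among 13456 genes, and the interaction fit 199 of 200, with 8 wrong calls among 13788 genes. Replicates of WT differed by 2.55 times and those of Grhl3-null by 3.89 times the sampling variance (chi-square per degree of freedom over genes), that is, by more than sampling noise, but they are reactions of 1 pool and not independent biological replicates.

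Genes named were the rule genes, Grhl3, genes of the lists, the 10 largest changes each way among called genes of at least 10 CPM, the 5 largest each way in each interaction fit, the 15 highest folds over other cells, the 15 highest and lowest over Hox-positive cells, and the 15 most variable genes. Hist1h2ap, Nr2f2 and Col26a1 were named after their values were seen. A few genes that this rule names are not reported here. Residual variance used a negative binomial model, correlations used Python 3.11.15 and numpy 2.4.6, and copies were found with BLAST 2.17.0 in GENCODE vM21 transcripts. Promoters came from RefSeq.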

Additional observations from a re-analysis of the deposited data

Results flagged for a closer look

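Several results were set aside because the difference between Grhl3-null and WT itself differed between groups of cells, by the test of that difference in edgeR. The female genotype difference in the share of members exceeded the male one by 1.57 on the log2 scale. The genotype difference of 228 genes differed between members and Hox-positive presomitic cells, that of 223 genes between members and somite cells, and that of 153 genes between female and male members of at most 45000 UMIs.

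Among those 153 genes, the female minus the male log2 fold change was 2.19 for Hes5, 1.73 for Krt19, 1.42 for Hes1, 1.33 for Ndufa4l2 and 1.28 for Pink1. It was -2.50 for Pou5f1, -2.0 for Meox1, -1.57 for Aldh1a2, -1.33 for Fst and -1.30 for 3110004A20Rik. The sexes of a genotype may come from different embryos of its pool, so sex and embryo cannot be told apart.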

How the results depend on the processing

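The share of members (log2 difference -0.25) was -0.21 with at least 5 Tbx6 UMIs and -0.18 with at most 5% mitochondrial UMIs, neither past the threshold, and turned to 0.20 in female cells and 0.25 in female cells of at most 45000 UMIs. Leaving out 1 library gave -0.33 to -0.17, and 30.5 to 31.7 percentage points for the share among presomitic cells. Against 436 higher and 158 lower genes there were 191 and 48 at a log2 limit of 1 and 218 and 74 with DESeq2. The same members, chosen by the unchanged rule but with their counts thinned to 7500 UMIs a cell, gave 135 and 51. Male members gave 239 and 50 and female members 344 and 195. At most 45000 UMIs there were 198 and 93, where male members gave 91 and 45 and female members 245 and 155. Leaving out 1 library gave 269 to 433 higher and 98 to 186 lower genes. Genes differing from Hox-positive cells numbered 368 with doublets removed and 191 to 286 without 1 library, those differing from somite cells 139 to 222, and the genes whose genotype difference differs between female and male members 492 with no UMI limit and 87 to 167 without 1 library. The causes were not tested.

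Some named genes changed sign. In female members the log2 fold change was -0.53 for Nr2f1, -0.37 for Twist1, -0.29 for Foxd1, -0.023 for Rdh10, -1.26 for Meox1, -1.54 for Meox2, -0.92 for Cer1 and 0.00198 for Hoxa10. In male members it was -0.042 for Hes1, 0.38 for Fst, 0.15 for Vim and 0.17 for Fos. At most 45000 UMIs it was -0.15 for Twist1, -0.21 for Foxd1, -0.83 for Grem1, -1.10 for Meox1, -0.29 for Snai2, -0.15 for Hes3, -0.23 for Irx3 and -0.34 for Hand2. Male members under that limit gave -0.27 for Foxd1, 0.19 for Pou5f1, 0.043 for 3110004A20Rik, -0.070 for Hes1, -0.20 for Meox1, -0.12 for Sox2 and -0.028 for Irx3, and female members -1.17 for Twist1, -0.39 for Foxd1, -0.56 for Grem1, -2.20 for Meox1, -1.18 for Hes3 and -0.46 for Irx3.

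With the replicate number as a block 506 genes were higher and 186 lower, and the share of members stayed at -0.25. Same-numbered libraries share only a number in the labels, and their deviations had an r of 0.446 over 7594 genes. The crossed pairing, added after seeing the data, gave 369 and 125. RLE size factors gave 433 and 161, and no filter on low counts 502 and 187, and under both all 69 named genes tested kept their call. The comparison with Hox-positive cells at most 45000 UMIs was not run, since the null libraries held 9 and 15 such cells. Depth limits Hox groups 10 to 13 and the transcripts of other cell types.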
